A study of Mus musculus with 8 samples.

Results

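In this comparison 6 arrays were set against 2. The pooled side held the 2 arrays titled overnight control, the 2 titled Valpha2 and the 2 titled Vbeta5, and the other side held the 2 arrays titled control. The members were chosen by these titles alone, and together they are all 8 arrays of the series. Every array carried total RNA of mouse double positive thymocytes, and the series title concerns the engagement of the T cell receptor with antibodies. Valpha2 and Vbeta5 are names of variable segments of the receptor's alpha and beta chains. The comparison asks which transcripts differed from the control in the same way in the 3 other groups, whichever antibody name a group carried or none. Strain, genotype, age, antibody clone, dose, treatment of the control and all times other than the word overnight were not given in the sources used here. Each group had 1 array numbered Data 1 and 1 numbered Data 2. Nothing in the labels says that the numbers stand for separate animals or cultures, so a p-value here reflects the spread of these arrays alone, part or all of which may be technical.

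Double positive thymocytes express both CD4 and CD8 and are the stage at which a thymocyte first carries a complete alpha beta receptor. They arise through a burst of division that follows a successful beta chain rearrangement. Large dividing blasts then give rise to small resting cells, which make up most of the population. Genes of the cell cycle are transcribed in waves. E2F factors act on the genes of DNA synthesis as a cell leaves the first gap phase, and a later wave, which acts through the cell cycle homology region (CHR) and CCAAT boxes of promoters, carries the genes of mitosis.

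The defining transcripts of the labelled cell type were present on every array. Cd4 signal ranged from 680.1 to 3591.2, Cd8a from 2143 to 8257.1, Cd8b1 from 3832.3 to 15480, and Cd3e, a chain of the receptor complex, from 2445.8 to 5699.8. The number of arrays limits the precision, and the control side rests on 2. Those 2 correlated at r = 0.955 over the tested probe sets, and the second control array correlated as closely (r = 0.956) with the second overnight control array. The 3' to 5' signal ratio of Gapdh, a measure of RNA or target quality, was 0.95, 1.72 and 0.48 (log2) on the arrays numbered 1 of the overnight control, Valpha2 and Vbeta5 groups, and between -0.28 and -0.09 on the other 5, both controls included. Its part in the results was not tested, but calls without these 3 arrays are given below.

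Pooled against the control, 105 of 8281 tested probe sets passed an adjusted p of 0.05 (1.27%). Of these, 91 fell (1.1%) and 14 rose (0.169%). The probe sets that fell named 80 genes and those that rose named 11, and the other 8 probe sets had no single gene symbol. The falls ran from 1.77-fold to 12.8-fold with a median of 3.1-fold, and the rises from 1.81-fold to 4.14-fold. All folds are on the scale of log2(signal + 17) and understate the change of dim probe sets. On all 105 probe sets, the 6 pooled arrays lay wholly on one side of both control arrays. Over all tested probe sets the arrays were apart in this way for 7.52% on the higher side and 6.67% on the lower side.

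All adjusted p-values here are two-sided, from limma with Benjamini-Hochberg adjustment over the 8281 probe sets, with the SE of the same fit. The smallest was 0.00166. With 2 arrays against 6 the smallest two-sided p of an exact permutation test, by doubling the one-sided p, is 0.0714, so none was run. The calls rest on having both control arrays. Without control 1 no probe set passed limma's threshold (smallest adjusted p 0.0932, 366 at an unadjusted p under 0.05), and without control 2 none did (smallest adjusted p 0.0959, 646 at an unadjusted p under 0.05). All 105 kept their direction in both cases. That was fixed in advance, because on each the 6 pooled arrays lay on one side of both controls. Without the 2 Valpha2 arrays 26 probe sets passed, among them 25 of the 91 that fell and 0 of the 14 that rose. Without the 3 arrays of highest 3' to 5' ratio 89 passed, among them 72 of the 91 that fell and 10 of the 14 that rose.

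**Figure D1:**
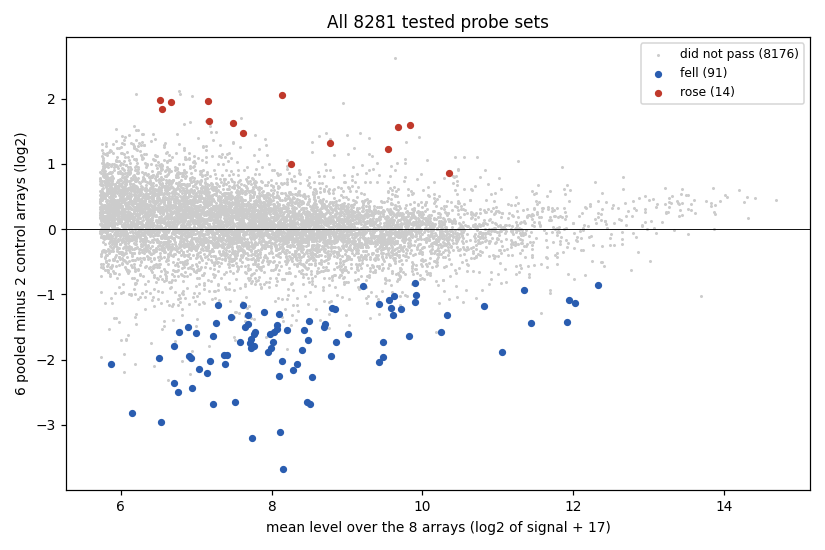
Each point is 1 of 8281 tested probe sets, with the mean level over the 8 arrays across (log2 of signal + 17) and the difference of the 6 pooled arrays from the 2 control arrays up (log2). The 91 probe sets that fell reach -3.68, the 14 that rose reach 2.05, and the grey points did not pass.

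Members of the lists of DNA replication and mitosis made up 38 of the 80 named genes that fell. Other genes of cell division were among the 42 in neither list. A list of 35 tested genes of DNA replication had 18 that fell, 17 that did not pass and none that rose, and a list of 32 tested genes of mitosis had 20 that fell, 12 that did not pass and none that rose. Over all 6094 tested genes, each by its brightest probe set, 1.25% fell and 0.181% rose. The median difference was -1.32 in the replication list and -1.47 in the mitosis list, beside 0.06 over all tested genes. All 6 pooled arrays lay below both controls for 27 of the 35 and 28 of the 32, where they did so for 7.24% of all tested genes. In bulk RNA, fewer cells of a type and less RNA per cell cannot be told apart, so these values do not say whether fewer cells were dividing or each held less of these transcripts.

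Among the genes that make DNA precursors, Rrm2, the small subunit of ribonucleotide reductase, had signals of 1719.3 and 2136.2 on the control arrays, and of 81.7 (lowest), 124.45 (median) and 273.6 (highest) on the 6 pooled arrays. This was the largest fall in the comparison, 12.8-fold (log2 -3.68, SE 0.37, adjusted p 0.00166). The highest pooled array was still far below the lower control array. Rrm1, the large subunit of the same enzyme, had 939 and 801.3 on the controls against 118.3, 163.45 and 256.7, a fall of 4.77-fold (log2 -2.25, SE 0.29, adjusted p 0.00488). Thymidine kinase Tk1, which salvages thymidine, had 622.1 and 455.8 against 59, 143.65 and 225.7 (log2 -1.83, SE 0.37, adjusted p 0.034). All 3 genes were low in every pooled array, so both subunits of the reductase and the salvage enzyme moved the same way.

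Origin licensing genes fell together with them. Cdc6, which loads the replicative helicase onto origins, had 533.8 and 635.5 on the controls and 60, 72.95 and 101.6 on the pooled arrays, a fall of 6.4-fold (log2 -2.68, SE 0.27, adjusted p 0.00166). The pooled arrays lay within a narrow band well below both controls. Of the helicase subunits, Mcm2, Mcm3, Mcm4, Mcm5 and Mcm7 fell, by 1.23, 1.74, 1.46, 1.96 and 1.22 on the log2 scale. For Mcm5 a dimmer probe set gave 0.51 and did not pass. Orc6 of the origin recognition complex fell by 1.73, Cdt1, the partner of Cdc6 in licensing, by 1.2, and Cdc45, which joins the helicase when an origin fires, by 2.14. Orc1 was the 1 tested member of the replication list above 0 (log2 0.43, adjusted p 0.829), at 53.9 and 103.5 on the controls and from 35.6 to 221.2 on the pooled arrays, which overlapped.

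At the replication fork, Pcna, the sliding clamp of the polymerases, had 2804.4 and 2654.9 on the controls and 546.2, 964.05 and 1204.3 on the pooled arrays (log2 -1.58, SE 0.27, adjusted p 0.0125). Pclaf, a small protein that binds the clamp, had 1377.6 and 1381.2 against 67.4, 162.2 and 209.3, a fall of 8.65-fold (log2 -3.11, SE 0.33, adjusted p 0.00166). The controls nearly coincided for Pclaf, and no pooled array came near them. Pclaf is in neither list and is named as 1 of the 12 largest falls. Pola1, the catalytic subunit of the priming polymerase, fell by 1.98 (log2), Lig1, the ligase of lagging strand fragments, by 1.80, and the flap nuclease Fen1 by 1.46. Rfc5 of the clamp loader (log2 -1.06, adjusted p 0.0535) and Pold1, a polymerase delta subunit (log2 -1.32, adjusted p 0.0593), did not pass.

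Genes that copy chromatin along with DNA were also low. Uhrf1, which brings the maintenance methyltransferase to newly copied DNA, had 1761.3 and 1199.1 on the controls and 136.7, 223.2 and 295.5 on the pooled arrays, a fall of 6.45-fold (log2 -2.69, SE 0.28, adjusted p 0.00166). Dnmt1, that methyltransferase, had 1539.8 and 1859.8 against 611.5, 809.75 and 838.3 (log2 -1.12, SE 0.18, adjusted p 0.0111). The fall of Uhrf1 was thus the larger of the pair, and neither gene's arrays overlapped. Asf1b, a chaperone of new histones, fell by 2.21 (log2), Slbp, which binds the stem loop of histone messages, by 1.32, and Ezh2, the methyltransferase of Polycomb complex 2, by 0.82. These 3 are in neither list and were chosen after their values were seen.

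The kinases and cyclins that drive entry into mitosis came next. Cdk1, the kinase of mitotic entry, had 868.7 and 1011.3 on the controls and 80.2, 212.25 and 303.7 on the pooled arrays, a fall of 4.47-fold (log2 -2.16, SE 0.39, adjusted p 0.0171). Its partners Ccna2 and Ccnb2 fell by 1.5 and 1.32 (log2). Aurkb, the kinase of the chromosomal passenger complex, had 500 and 356.8 against 35.1, 58.6 and 120.6, a fall of 5.44-fold (log2 -2.44, SE 0.41, adjusted p 0.0125). The kinases Plk1 and Aurka fell by 1.55 and 1.44, with a dimmer Plk1 probe set at -0.26 that did not pass. Every pooled array was below both controls for each of these genes by its brightest probe set. Incenp, another subunit of the passenger complex, did not pass (log2 -1.11, adjusted p 0.0535), nor did Racgap1 of the central spindle (log2 -1.35, adjusted p 0.0612).

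Chromosome and spindle genes held the second largest fall. Top2a, the topoisomerase that untangles sister chromatids, had 1090.2 and 1128.4 on the controls and 16.4, 132.3 and 192.4 on the pooled arrays, a fall of 9.18-fold (log2 -3.20, SE 0.55, adjusted p 0.0126). Its lowest value, on Vbeta5 array 1, was under the offset of 17, and the other 5 pooled arrays stood well above it. Kif11, the motor that separates spindle poles, had 614.3 and 815.7 against 51.4, 109.15 and 161.8, a fall of 6.28-fold (log2 -2.65, SE 0.40, adjusted p 0.00954). Nusap1, which binds spindle microtubules, had 1307.1 and 1468.3 against 72.7, 261.05 and 344.5 (log2 -2.65, SE 0.44, adjusted p 0.0112). A dimmer Nusap1 probe set gave -0.71 and did not pass. Nusap1 is in neither list and is named as 1 of the 12 largest falls. The motors Kif2c, Kif4 and Kif22 fell by 1.73, 1.6 and 1.03. The checkpoint genes Mad2l1 (log2 -2.07) and Bub1 (-1.97) and the condensin subunit Smc2 (-1.58) fell as well.

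Mki67, which encodes the proliferation antigen Ki-67, had 1094.6 and 1288.6 on the controls and 122.8, 265.5 and 312.3 on the pooled arrays, a fall of 4.8-fold (log2 -2.26, SE 0.30, adjusted p 0.00585). A dimmer probe set of the gene gave 0.68 and did not pass (adjusted p 0.602), with its arrays apart in the opposite direction. The other mitosis genes that fell were Tacc3, Birc5, Prc1, Cdc20 and Stmn1, by 1.09 to 2.06 (log2). Smc4, the condensin partner of Smc2, was the 1 tested mitosis gene above 0. It had 3402.6 and 5343.8 on the controls and from 6746.3 to 9271 on the pooled arrays, which did not overlap, and it did not pass (log2 0.80, adjusted p 0.123).

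**Figure D2:**
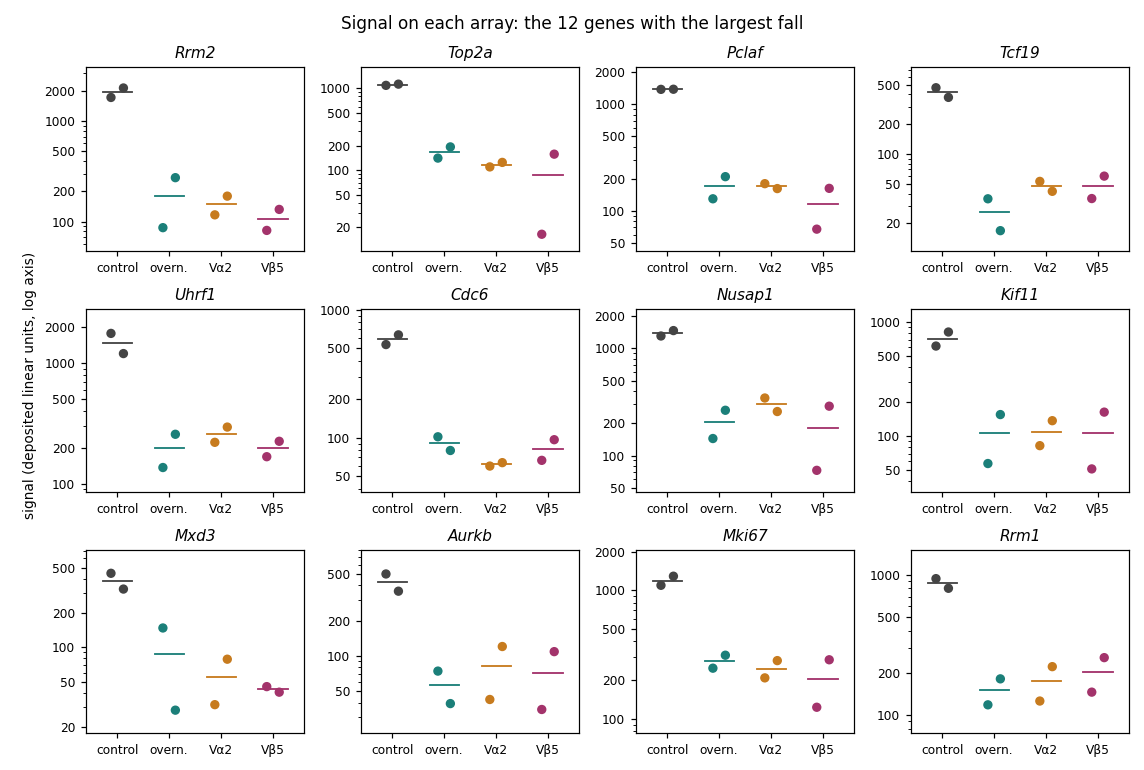
Signal on each array, in the deposited linear units on a log axis, for the 12 genes with the largest fall by their brightest probe set, with a point per array (number 1 left, number 2 right) and a line at the mean of 2. On all 12 the 6 arrays of the overnight control, Valpha2 and Vbeta5 lie below both control arrays, and Top2a on Vbeta5 array 1 is at 16.4.

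The promoters of 5 of these genes are shown because they carry the elements named above for the waves of cell cycle transcription. Each line gives the 200 bases before the annotated start, 5′ to 3′ on the gene's strand, from RefSeq's table of assembly GRCm38.p6. Capitals mark matches on either strand to TTTNNCGC (a loose spelling of the E2F site, N being any base), TTTGAA (the CHR) and CCAAT. They are Cdc6 at chr11:98907951-98908150 (plus strand), Cdk1 at chr10:69352913-69353112 (minus), Top2a at chr11:99024190-99024389 (minus), Kif11 at chr19:37376182-37376381 (plus) and Mki67 at chr7:135716380-135716579 (minus).
Cdc6: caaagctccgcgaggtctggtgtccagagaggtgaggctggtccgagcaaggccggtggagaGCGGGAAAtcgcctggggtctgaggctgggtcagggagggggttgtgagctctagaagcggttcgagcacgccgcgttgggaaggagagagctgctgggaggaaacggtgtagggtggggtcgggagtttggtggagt
Cdk1: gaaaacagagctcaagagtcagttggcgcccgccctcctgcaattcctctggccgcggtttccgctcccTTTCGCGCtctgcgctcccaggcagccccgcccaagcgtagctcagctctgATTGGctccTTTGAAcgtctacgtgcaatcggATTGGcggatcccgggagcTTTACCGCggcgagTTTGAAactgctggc
Top2a: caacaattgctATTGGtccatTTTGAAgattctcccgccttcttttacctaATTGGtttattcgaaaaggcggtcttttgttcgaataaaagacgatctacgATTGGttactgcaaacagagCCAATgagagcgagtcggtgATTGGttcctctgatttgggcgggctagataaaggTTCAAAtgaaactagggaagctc
Kif11: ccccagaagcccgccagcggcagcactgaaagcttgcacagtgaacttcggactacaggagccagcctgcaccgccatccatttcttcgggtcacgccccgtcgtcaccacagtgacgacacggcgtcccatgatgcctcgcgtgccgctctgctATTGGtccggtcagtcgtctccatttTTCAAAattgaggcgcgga
Mki67: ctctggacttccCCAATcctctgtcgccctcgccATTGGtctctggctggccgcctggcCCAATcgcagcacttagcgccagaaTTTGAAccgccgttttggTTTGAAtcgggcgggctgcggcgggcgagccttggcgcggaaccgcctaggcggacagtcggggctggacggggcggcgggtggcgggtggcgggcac

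The licensing gene Cdc6 holds 1 match to the E2F spelling and none to the CHR or CCAAT. Cdk1 holds 2 matches to each of the 3 spellings. Its match TTTACCGC is in none of the other E2F sets given below. Top2a, Kif11 and Mki67 hold 2, 1 and 2 CHR matches and 5, 1 and 3 CCAAT matches, and no E2F match of this spelling. Of the 80 named genes that fell, 72 had a promoter in the table, with 88 windows of 250 bases before a start. CCAAT was present in 61 of the 88 (69.3%), against 34.9% of the windows of all tested genes and 33.8% of all windows in the table. TTTGAA was present in 24 (27.3%), against 10.9% and 16.0%, and TTTNNCGC in 12 (13.6%), against 6.88% and 4.28%. The CHR variant TTTAAA was in 11 (12.5%, against 8.21% and 12.1%), and the cAMP response element TGACGTCA in 1 (1.14%, against 2.36% and 1.55%). Other spellings of the E2F site, which can cover the same bases, were searched in 3 sets. The set of TTTGGCGC or TTTCCCGC or TTTGGCGG or TTTCGCGC was in 10 windows (11.4%, against 3.75% and 1.96%), that of GGCGGGAA or TTTGGCGC or TTTCGCGC in 9 (10.2%, against 4.4% and 2.48%), and that of GCGGGAA or GCGCGAA or GCGCCAAA in 21 (23.9%, against 9.49% and 5.35%). The 8 windows matched to genes that rose held CCAAT in 4 and TTTGAA in 3. Both strands were searched, and a match is a description of the letters, not a bound site.

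The 3 pooled groups stood at similar distances from the control in both lists. The median of the replication list was -1.36 in the overnight control, -1.36 in Valpha2 and -1.23 in Vbeta5, and that of the mitosis list -1.28, -1.44 and -1.51. For Rrm2 the differences were -3.48, -3.58 and -3.99 in that order, for Cdc6 -2.49, -2.93 and -2.62, and for Mki67 -2.03, -2.21 and -2.55. The 3 groups are set against the same 2 control arrays, so their agreement is not independent. A moderated F test of the differences among the 3 groups passed for none of the 105 probe sets (smallest adjusted p 0.218) and for 38 of the 8281 tested (0.459%). That miss does not show that the groups were equal. The pooled fit leaves differences among the 3 groups in its spread, so the 105 were in part selected for small ones. By array, the replication median lay between -1.17 and -1.51 and the mitosis median between -1.21 and -1.83 relative to the control mean, so no single pooled array carried the fall.

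**Figure D3:**
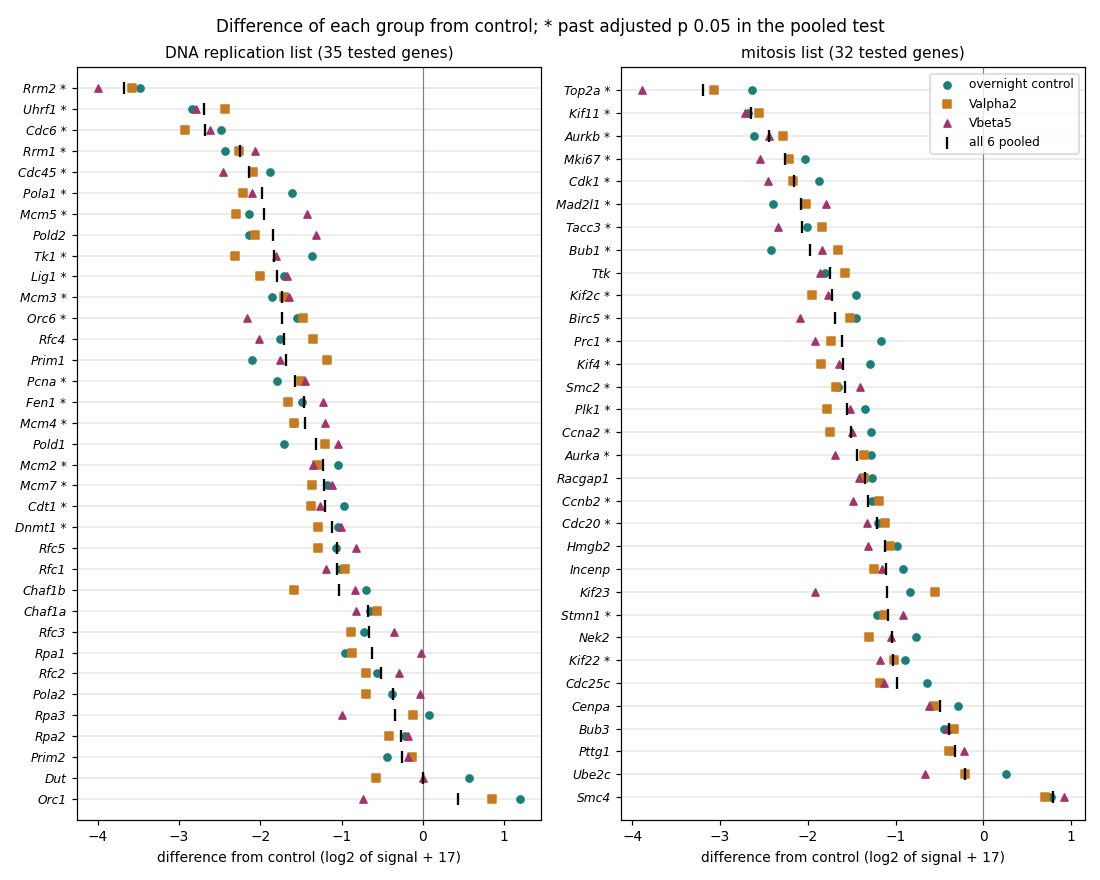
Difference of each group from the control (log2 of signal + 17) for the 35 tested DNA replication genes and the 32 tested mitosis genes, with a symbol per group, a bar for the 6 arrays pooled and an asterisk at genes past an adjusted p of 0.05. All but Orc1 and Smc4 have a pooled value below 0, and the symbols of the 3 groups mostly lie close together beside their distance from 0.

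Of the 80 named genes that fell, 42 were in neither list. Of these, 4 were in other fixed lists. The genes in the rest of this paragraph were in no list, and all but Tcf19 and Mxd3 were chosen after their values were seen. Tcf19, a gene of late G1, was among the 12 largest falls, with 465.6 and 372.2 on the controls and 16.9, 38.85 and 59.9 on the pooled arrays, 7.79-fold lower (log2 -2.96, SE 0.35, adjusted p 0.00302). Mxd3, a partner of Max, had 445 and 323.7 against 28.1, 42.8 and 147.6, 5.63-fold lower (log2 -2.49, SE 0.46, adjusted p 0.0206). The repressor E2f8 fell on both of its probe sets (log2 -1.94 on the brighter and -2.82 on the dimmer). Chek1, the kinase of the replication checkpoint (log2 -1.58), the licensing inhibitor Gmnn (-1.5), the kinase subunits Cks1b and Cks2 (-1.7 and -1.61) and Plk4, which starts centriole duplication (-1.93), fell as well. Every one of these was low in all 6 pooled arrays.

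Genes that act ahead of division or outside it fell too. Ccnd3, the D cyclin that thymocytes use as they expand, was among the brightest, with 6248.4 and 5087 on the controls and 915.7, 1528.4 and 2385.3 on the pooled arrays, 3.71-fold lower (log2 -1.89, SE 0.31, adjusted p 0.0111). Cdkn2c, an inhibitor of the kinases that D cyclins activate, had 699.1 and 762.5 against 165.6, 263.7 and 402.2 (log2 -1.40, SE 0.29, adjusted p 0.0408). A cyclin and an inhibitor of the same step were thus both low. Dusp6, a phosphatase of ERK, had 469.7 and 376.7 against 98.9, 139.1 and 166.5 (log2 -1.5, SE 0.25, adjusted p 0.0111), and a dimmer probe set gave 0.47 and did not pass. Tnk2, a non-receptor tyrosine kinase, had 2018.2 and 1904.5 against 351.3, 493.2 and 562.1, 4.11-fold lower (log2 -2.04, SE 0.22, adjusted p 0.00181). Gsn, which severs actin filaments, fell by 1.09. Tnk2 and Gsn were chosen after their values were seen.

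Of 24 tested genes of growth arrest and the kinase inhibitors, 2 fell (Ccnd3 and Cdkn2c), 1 rose (Gadd45b) and 21 did not pass, with a median of -0.15. Among 9 core histone genes, H2ax, the variant that is phosphorylated at DNA breaks, fell (3566.9 and 3064.9 on the controls, and 1146.3, 1499.9 and 1771.3 on the pooled arrays, log2 -1.18, SE 0.20, adjusted p 0.0125) and 8 did not pass. Tubulin probe sets for Tuba1a, Tuba1c and Tubb5 fell by 1.45, 1.13 and 0.85. Such probe sets may not separate close copies, as the alpha tubulin genes Tuba1a and Tuba1c are. The brightest probe sets of Tuba1a (-0.57) and Tubb5 (-0.50) did not pass. The brightest probe sets of Fignl1 (0.50) and Nup85 (-1.03) did not pass either, where another of theirs fell.

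The 11 named genes that rose shared no list by more than 1 member. Timp1, an inhibitor of matrix metalloproteinases, rose most, from 57 and 109 on the controls to 260.7, 387.25 and 677.1 on the pooled arrays, 4.14-fold (log2 2.05, SE 0.34, adjusted p 0.0112). Ctla4, an inhibitory receptor induced in activated T cells, had 48.2 and 23.5 against 132.8, 200.25 and 238.9, 3.9-fold higher (log2 1.96, SE 0.31, adjusted p 0.0106). Its differences were 2.18 in the overnight control, 2.14 in Valpha2 and 1.56 in Vbeta5, so by these values the group with no antibody name was no nearer to the control. Gadd45b, a stress gene that activates p38 and JNK kinases through an upstream kinase, had 55.5 and 33.6 against 154.3, 173.2 and 212.4 (log2 1.67, SE 0.26, adjusted p 0.0106). Its dimmer probe set also rose (log2 1.95).

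Of the rises, 3 were in genes of metabolism, autophagy and antigen presentation. Cpt1a, which admits long-chain fatty acids to mitochondria, had 342.5 and 426.4 on the controls and 721.4, 1324.9 and 1734.7 on the pooled arrays (log2 1.6, SE 0.30, adjusted p 0.0241). Gabarapl1, a member of the family that coats autophagosomes, had 177.4 and 152.3 against 313.3, 344.85 and 388.9 (log2 1.00, SE 0.20, adjusted p 0.0319). Tap2, a subunit of the peptide transporter of class I presentation, had 834.1 and 800.5 against 1278.4, 1496.1 and 1797.1 (log2 0.85, SE 0.18, adjusted p 0.0438). None of these arrays overlapped. Tap2 was the 1 of 38 tested genes of antigen processing and the proteasome that rose, and the median of that list was -0.07. Spg21, which binds CD4, rose by 1.23. With the arrays scaled to a common median none of these 4 genes passed, at adjusted p of 0.0841 for Cpt1a, 0.18 for Gabarapl1, 0.368 for Tap2 and 0.162 for Spg21.

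The remaining rises were in genes best known from other cells. Gzma, a granzyme of cytotoxic lymphocytes, had 183.3 and 224.1 on the controls and 389.4, 575.7 and 610.4 on the pooled arrays (log2 1.32, SE 0.22, adjusted p 0.0111). Of 4 tested markers of NK and gamma delta T cells it was the 1 that rose. The median of the 4, with Gzma among them, was 0.64 to 1.5 (log2) above the control mean on the 6 pooled arrays. The summed signal of the whole list without Gzma (10 genes) was 254 and 283 on the controls and 247 to 705 on the pooled arrays, which overlapped. Of the 14 probe sets of the whole list, Gzma included, 4 had all pooled arrays above both controls and 0 had them below. Of all tested probe sets 7.52% were apart on the higher side. The 4 were those of Gzma, the receptor Klra3 (21.2 and 23.6 against 34.6 to 77.7), Tyrobp and 1 of 2 of the receptor Klra7 (15.1 and 24.4 against 45.9 to 119.1). Tyrobp, a signalling adaptor that is also in the macrophage list, had 12.9 and 8.2 against 14.1 to 68.2. Ncr1, a defining NK receptor, was at 3.2 to 7.7 on 7 arrays and at 44.9 on overnight control array 1. The part of such cells in the rise of Gzma was not tested. Igkv4-68, an immunoglobulin kappa segment, had 13.5 and 18.1 against 71.4, 115.55 and 175.1 (log2 1.98, SE 0.39, adjusted p 0.0279). None of 8 tested B cell markers passed. The summed signal of all 13 on the array was 7219 to 8111 on the controls and 4944 to 9819 on the pooled arrays, but Ighm made up 85.7% of it. Without Ighm the other 12 summed to 656 and 887 on the controls and 1021 to 1640 on the pooled arrays, which did not overlap, and the part of B cells in the rise of Igkv4-68 was not tested. Adam11, a disintegrin of neurons, and Ctrb1, a pancreatic protease precursor, rose by 1.84 and 1.62 from control signals of 16.4 to 61.

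Other signals moved on the same arrays as the rises, and their part in them was not tested. In the dimmest of 3 equal classes of tested probe sets by mean level the median difference was 0.23, in the middle class 0.08 and in the brightest -0.02. Scaling the arrays to a common median moved the median of all tested probe sets from 0.08 to -0.11, and 9 of the 14 rises and all 91 falls still passed. The summed signal of 13 granulocyte markers was 594 to 832 on the controls and 876 to 1887 on the pooled arrays, and that of 16 macrophage markers 810 to 956 and 1054 to 1944. Csf3r made up 38.8% of the granulocyte sum. All pooled arrays were above both controls for 2 of 17 granulocyte and 2 of 25 macrophage probe sets, and below for 0. Of all tested probe sets 7.52% were apart on the higher side. The sums of the dendritic cell, erythroid and thymic epithelium lists overlapped between the sides. That of fibroblast and endothelium markers was 77.7% Thy1, which thymocytes express, and without it was 1819 and 1743 on the controls and 1676 to 3642 on the pooled arrays, 5 of which were above both controls. Neither the granulocyte nor the macrophage sum overlapped, no marker was listed at 0, Lyz2 of the macrophage list and Cr2 of the B cell list were under the offset on every array, and no tested member of either the granulocyte or the macrophage list passed.

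**Figure D4:**
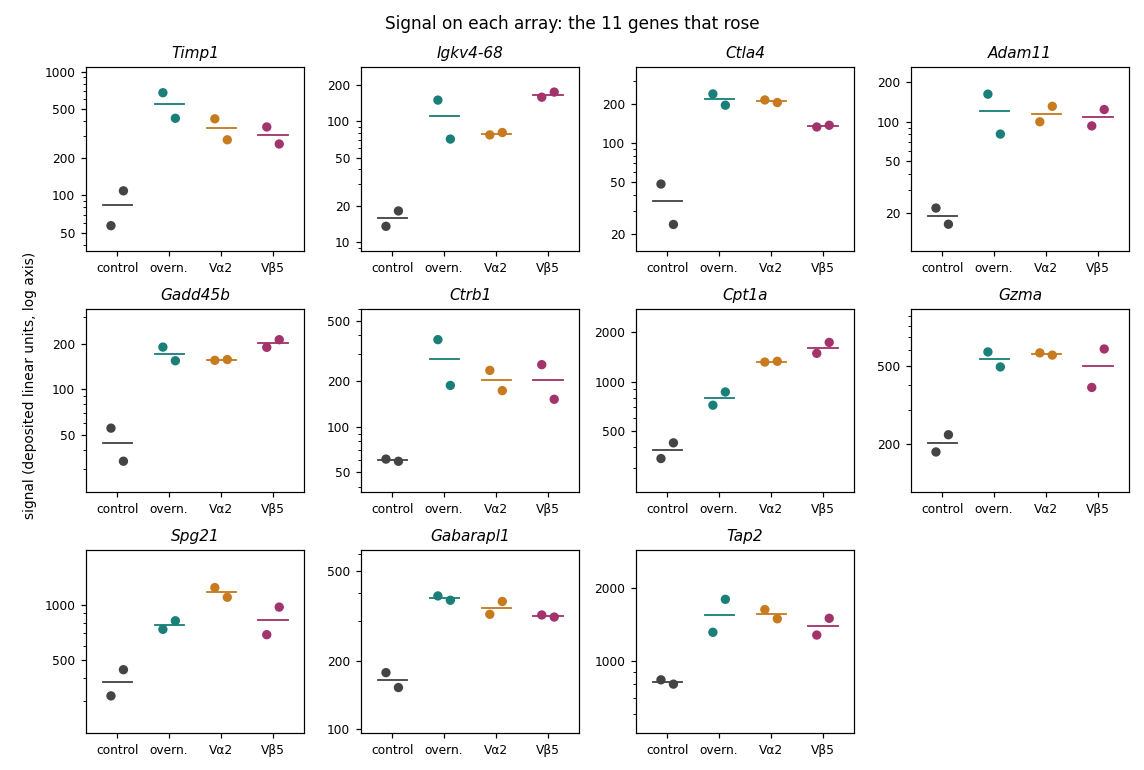
Signal on each array, in the deposited linear units on a log axis, for the 11 named genes that rose, by their brightest probe set, with a point per array (number 1 left, number 2 right) and a line at the mean of 2. All 6 pooled arrays lie above both control arrays in each panel, and Adam11 and Igkv4-68 start from control signals of 13.5 to 21.8.

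Of the genes that report receptor signalling, Ctla4 and Dusp6 passed. Over all tested genes 0.181% rose and 1.25% fell, so lists of this size would hold few calls in any case. Of 14 tested genes of the early T cell receptor response, 1 rose and 13 did not pass, with a median of -0.02 in the overnight control, 0.55 in Valpha2 and 1.76 in Vbeta5. By array the median was -0.09 and 0.84 in Valpha2, so the value for Valpha2 rests on its array 2, and 1.71 and 1.81 in Vbeta5. Among the 14 genes, 5 differed among the 3 groups by the F test, where 0.574% of all genes did. Nr4a1, an orphan nuclear receptor induced by receptor signals, had 158.8 and 217.8 on the controls, and 533.9 and 778.3 in the overnight control, 342.4 and 1444.9 in Valpha2 and 3275.5 and 5184 in Vbeta5. Its pooled arrays were all above the controls, but their spread was wide and it did not pass (log2 2.63, SE 0.82, adjusted p 0.246). Of 24 immediate early genes, 1 fell (Dusp6) and 23 did not pass, with a median of 0.39. By group the median was 0.17 in the overnight control, 0.23 in Valpha2 and 1.07 in Vbeta5, and 3 of the 24 differed by the F test. Fos (log2 1.37, adjusted p 0.383) and Fosb (log2 1.13, adjusted p 0.264) did not pass. Cd5, of the early T cell receptor response list, did not pass either (log2 -0.52, adjusted p 0.827). It differed from the control by -1.50 in the overnight control, -0.96 in Valpha2 and 0.88 in Vbeta5.

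The double positive identity genes showed no common change that passed. Of 19 tested genes of the double positive stage none passed, with a median of -0.13, where 1.25% of all tested genes fell and 0.181% rose. By the F test 7 of the 19 differed among the 3 groups, where 0.574% of all tested genes did. Cd4 had 3591.2 and 2362 on the controls and 680.1 to 3189.5 on the pooled arrays (log2 -0.85, adjusted p 0.57), and Cd8a had 6780.2 and 6947.2 against 2143 to 8257.1 (log2 -0.51, adjusted p 0.725). Both overlapped the controls. Both Vbeta5 arrays were below both controls and every other pooled array for Cd4 and for Cd8a, and the differences of Vbeta5 from the control were -1.72 and -1.41. Among 18 tested genes of later thymocyte maturation none passed, with a median of 0.30. By group that was 0.15 in the overnight control, 0.13 in Valpha2 and 0.78 in Vbeta5, and 3 of the 18 differed by the F test.

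The list of interferon response genes had none of 24 tested that passed and 23 above 0, with a median of 0.55. Of all 6094 tested genes 3458 were above 0. By group the list's median was 0.33 in the overnight control, 0.65 in Valpha2 and 0.95 in Vbeta5. By array it ran from 0.042 on overnight control array 2 to 1.735 on Vbeta5 array 2. Rsad2, an antiviral enzyme, had 6.4 and 9.9 on the controls and 39.1 to 176.1 on the pooled arrays, and just missed (log2 2.07, SE 0.48, adjusted p 0.0687). Its control signals were under the offset. All 6 pooled arrays lay above both controls for 6 of the 24, where they did so for 7.09% of all tested genes. Irf9, the DNA-binding subunit of the complex that interferon activates, also did not pass (log2 1.15, adjusted p 0.19). Of 15 tested p53 targets, Gadd45b rose and 14 did not pass. Of 12 anti-apoptotic genes, Birc5, which also serves in mitosis, fell and 11 did not pass, Bcl2 among them (log2 -0.19, adjusted p 0.867). In the pro-apoptotic, heat shock, endoplasmic reticulum stress, oxidative stress, glucocorticoid and circadian clock lists, none of 17, 25, 22, 18, 15 and 14 tested genes passed, and their medians lay between 0.03 and 0.27. Nor did any of 33 genes of ribosome biogenesis, 52 of oxidative phosphorylation, 21 of glycolysis, 20 of cholesterol synthesis, 16 of NF-kB targets, 25 of cytokine receptors or 35 of homing and adhesion, with medians from -0.06 to 0.39. With 1.25% of all tested genes lower and 0.181% higher, lists of these sizes would hold few calls in any case.

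**Figure D5:**
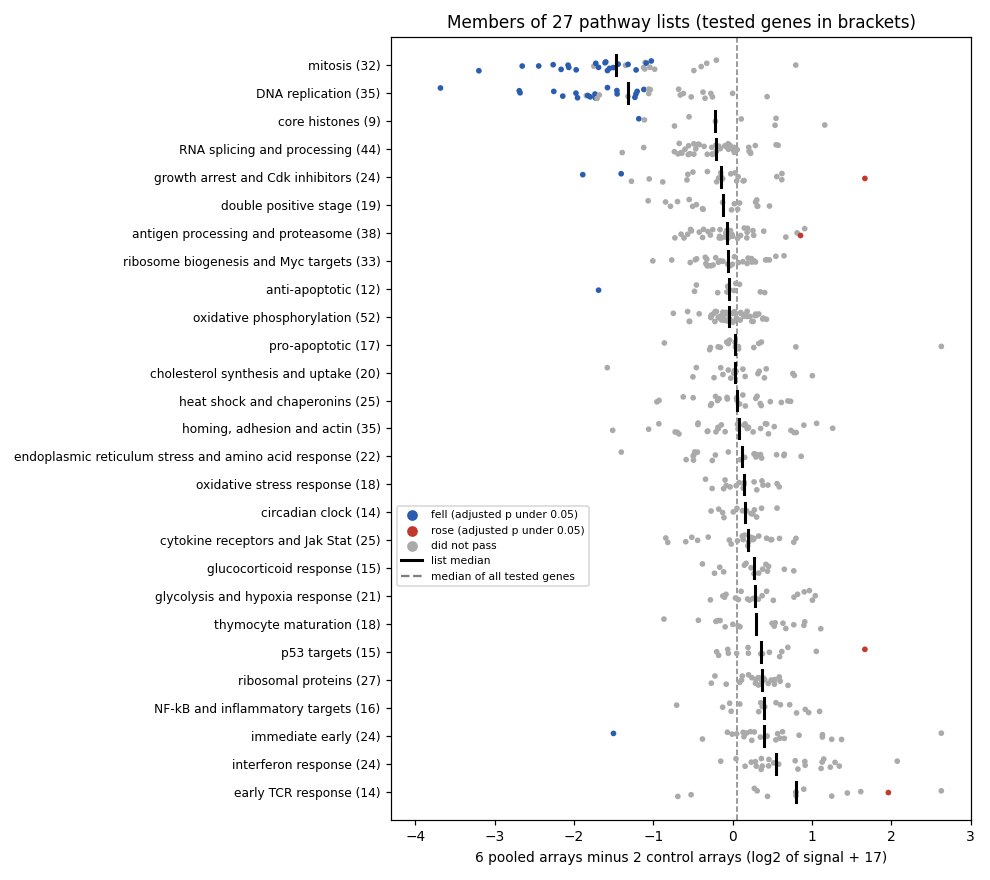
Each point is a tested gene of 1 of 27 pathway lists, by its brightest probe set, at its difference between the 6 pooled and the 2 control arrays (log2 of signal + 17), with a bar at the list's median and a dashed line at the median of all tested genes, 0.06. The mitosis and DNA replication lists stand at -1.47 and -1.32, and the medians of the other 25 lie between -0.22 and 0.80.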

How the data were processed

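Total RNA of mouse double positive thymocytes was measured on 8 arrays in 4 groups of 2, grouped by title. The table that the authors deposited holds an intensity per array for 12488 probe sets. The values are normalized per the labels, but the sources used here name no software, method or target. The mean after trimming 2% at each end was 250.14 to 250.16 on every array, while the median was 73.65 to 110.25. Background cannot be separated from low signal, and 12.24% to 24.72% of the signals on an array were under 17.

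From this table, 66 control probe sets were left out, and log2(signal + 17) was taken with no further normalization, 17 being the 20th percentile of all signals above 0. The dimmest 33.3% by mean were left out, which left 8281. limma 3.58.1 (R 4.3.3) fitted the 6 arrays against the 2, with a variance trend, 6 residual and a median of 5.66 prior degrees of freedom, and a median SE of 0.31. The F test used 1 mean per group. The script was tested on simulated data.

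Of 12422 probe sets, 10833 had 1 gene symbol in the platform annotation, 396 had several and 1193 had none, and 10817 were found in the RefSeq table of GRCm38.p6, used for names and promoters only. Genes with several tested probe sets were represented by the brightest. The rule for naming genes took up to 12 largest rises and falls past the threshold with arrays apart. It also took up to 4 members that passed and 2 that did not of each pathway list. A fixed set of 16 was added (15 tested, 1 passed, 7 left out because their sign turned under an alternative). Beyond this rule, further members of the replication and mitosis lists and some cell type markers were named. So were further genes in no list, which were chosen after their values were seen. Members and lists were chosen with earlier results of these data known. Normalization, offset, filter, variance trend, array weights, replicate block, 1 mean per group and left-out arrays and groups were the alternatives tried.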

Additional observations from a re-analysis of the deposited data

Results flagged for a closer look

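On 151 probe sets that were checked for an outlying array among the 6 pooled ones, 11 had a gap to the nearest array above 0.625 of the range, and chance flags about 1 in 20. Among the genes that fell, Vbeta5 array 1 stood apart as the lowest for Top2a (16.4), Birc5 (60.5) and Kif22 (451.6), Valpha2 array 1 as the lowest for Mcm7 (536.7) and Dnmt1 (611.5), and overnight control array 1 as the lowest for Mad2l1 (94.9) and the highest for Pola1 (121.3). All of these values lay below both control arrays. Among genes that did not pass, overnight control array 1 was lowest for Sqstm1 (735.8), an autophagy receptor, and Srebf1 (936.6), a regulator of lipid synthesis. Vbeta5 array 2 was lowest for Il4ra (363.6), a cytokine receptor chain, and overnight control array 2 highest for Ccng1 (289.7), a p53 target.

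Of the named genes, Ets2, a transcription factor, and Cd8a differed among the overnight control, Valpha2 and Vbeta5 groups by limma's moderated F test, with adjusted p of 0.0143 and 0.0475. Ets2 differed from the control by -0.26, -0.23 and -2.70 (log2) in that order, and Cd8a by -0.15, 0.05 and -1.41. Outside the genes tested, the control probe sets gave a Gapdh 3' to 5' log2 ratio of 0.953 on overnight control array 1, 1.723 on Valpha2 array 1 and 0.484 on Vbeta5 array 1, above the control arrays.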

How the results depend on the processing

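All 105 calls kept their direction under the 24 alternatives (99 of 99 tested where the dimmest 50% were left out). Where arrays or groups were left out this was fixed in advance, because on every call the pooled arrays lay on one side of both controls. The number of calls was 198 with array weights, 26 without the Valpha2 group, 27 with only the arrays numbered 1 and 0 with only those numbered 2 (limma, 458 at an unadjusted p under 0.05). Leaving out 1 array at a time gave 0 to 107 calls, with 0 only without a control array. With the replicate block 140 passed, all 105 among them. Same-numbered arrays deviated together at r of 0.104 to 0.345, but there are only 2 numbers and the labels do not say what they share. The count of 38 that differed among the 3 groups was 0 under a common median (440 at an unadjusted p under 0.05), 0 without the variance trend (508), 95 with the replicate block and 0 to 49 with 1 array left out, where 0 was without Vbeta5 array 2 (368). Without Vbeta5 array 1 it was 4, without Valpha2 array 1 19, without overnight control array 2 17, and without control 1 and control 2 15 and 14. The cause was not tested. The 2 control arrays and the dim signal, which has no separate background, limit what can be called.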

Other observations

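Ribosomal protein genes and splicing genes were apart from the controls more often than they passed. None of 27 tested ribosomal protein genes passed limma's threshold, 24 were above 0 with a median of 0.37, and 14 had all pooled arrays above both controls, where 7.09% of all tested genes did. That median was 0.56 with only the arrays numbered 1, 0.14 with only those numbered 2 and 0.08 after quantile normalization. None of 44 tested genes of RNA splicing and processing passed, with a median of -0.21, and 12 had all pooled arrays below both controls, where 7.24% of all tested genes did.

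Single genes of lipid synthesis, protein folding, adhesion and the nuclear envelope did not pass. Scd2, a fatty acid desaturase, differed by -1.58 (log2, SE 0.35, adjusted p 0.0576 by limma). Hsp90aa1, an inducible chaperone, differed by -0.93 (adjusted p 0.113) and Hspa8, the constitutive chaperone of the Hsp70 family, by 0.61 (adjusted p 0.377). Itga4, an integrin chain, differed by 1.26 (adjusted p 0.109) and Lmnb1, a lamin of the nuclear envelope, by -1.51 (adjusted p 0.168).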
